A study of Mus musculus with 26 samples.

Results

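The 9 genes described here encode the coreceptors (*Gas1*, *Cdon*, *Boc*), the secreted-ligand antagonist (*Hhip*) and the signal transducers (*Smo*, *Sufu*, *Kif7*, *Gli2*, *Gli3*) of the Hedgehog (HH) pathway. They were taken by name from the 16426 genes of the scRNAseq counts and from the 17623 genes of each bulk RNAseq table, and all 9 had a row in every one of these files. *Ihh*, the ligand, and *Gli1* and *Ptch1*, genes that HH signaling induces, served as reference genes only.

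In the absence of ligand, the receptor PTCH1 keeps the membrane protein SMO inactive, and the GLI2 and GLI3 transcription factors are held back or processed into repressors with the help of SUFU and the ciliary kinesin KIF7. Binding of ligand to PTCH1, aided by the coreceptors GAS1, CDON and BOC, releases SMO, and activated GLI proteins then switch on *Gli1*, *Ptch1* and *Hhip*. HHIP binds HH ligands at the cell surface and limits their range, so that its induction acts as negative feedback.

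The scRNAseq data consisted of 1 library of B6129PF1/J and 1 library of C57BL/6J RPE/choroid cells, each from the eyes of 1 male and 1 female wild-type mouse 3 mo of age, sorted as live nucleated cells. The *Ihh* comparison used RPE/choroid of 3 *Ihh*+/+ and 3 *Ihh* iΔEC/iΔEC mice on C57BL/6J, 6 mo of age and killed 12 wk after tamoxifen. Both genotypes carried *Cdh5*-PAC-CreERT2, in which the *Cdh5* promoter directs Cre to ECs, and recombination in each cell type was not measured in these data. The third data set came from choroidal GLI1+ cells with 1 *Gli1* allele replaced by GFP (*Gli1* GFP/+). The cells are labeled SWR/J, and the paper states that the reporter line had been outcrossed to BALB/c. These cells had been sorted for GFP from pooled female mice, expanded in culture, starved of serum and then given 100 nM SAG, an agonist that binds SMO, or the DMSO vehicle for 24 h, with 3 samples each. The 3 samples of a treatment thus share the pool of mice from which the cells were sorted. The *Ihh* and SAG comparisons shared no sample.

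The scRNAseq counts held 3637 cells and 17168578 unique molecular identifiers (UMIs) in the B6129PF1/J library and 3928 cells and 15230413 UMIs in the C57BL/6J library, with 22 cell barcodes present in both. The authors' 13 clusters were built from the most variable genes of each library. Whether these held the genes described here is not known. The clusters comprised RPE (cluster 1), ECs (2 to 4, from *Kdr* high to *Kdr* low), stromal cells (5 to 8) and smooth muscle cells (9). The others were melanocytes (10), hematopoietic cells (11) and Schwann cells (12 and 13). Marker lists followed these labels with 2 qualifications. In the RPE cluster 4 of 5 RPE markers were highest, and *Best1* was not. The 4 pericyte markers summed to 104 and 101 UMIs per 10,000 in stromal cluster 6, a level like that of smooth muscle cluster 9 (96.5 and 102), whereas the stromal list was lower in cluster 6 (29.7 and 25.3) than in clusters 5, 7 and 8 (92.6 to 258). Rod photoreceptor markers reached at most 0.23 UMIs per 10,000 in any cluster. With 1 library per strain, no test between strains was possible, and none was made between clusters, which were defined on the same cells. Intervals are exact 95% intervals and cover counting error only.

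In the GRCm38 assembly, the coreceptor genes lie at chr13:60174405-60177365 (*Gas1*, minus strand), chr9:35421128-35507652 (*Cdon*, plus) and chr16:44485049-44558897 (*Boc*, minus), and *Hhip* lies at chr8:79965851-80058006 (minus). The transducers lie at chr6:29735503-29761365 (*Smo*, plus), chr19:46396896-46488804 (*Sufu*, plus), chr7:79698098-79715720 (*Kif7*, minus), chr1:118834132-119053619 (*Gli2*, minus) and chr13:15463235-15730026 (*Gli3*, plus). *Kif7* overlaps *Ticrr* and *9330171B17Rik* on the opposite strand and *Gas1* overlaps *Gm48488* and *Hhip* overlaps *Gm27820* in the same way. So do *Gli2* with *Mir6346*, *Gli3* with *Gm6556* and *Cdon* with *Gm24188*. Overlaps on the same strand are those of *Smo* with *Gm13717*, *Gli3* with *Gm48343*, *Cdon* with *Gm25630* and *Boc* with *Mir3081*. For the bulk RNAseq, the sources used here do not say whether reads were counted by strand. There, reads of these partners cannot be told apart from those of the member.

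The promoters of *Hhip* and *Gas1* are shown because these genes had the lowest and the highest ratio in the *Ihh* comparison and the reverse after SAG. Each run holds the 250 bases before the RefSeq start (GRCm38.p6), read 5′ to 3′ on the gene's own strand (both minus), at chr8:80058009-80058258 for *Hhip* and chr13:60177536-60177785 for *Gas1*. For *Gas1* the RefSeq start lies upstream of the GENCODE gene, which ends at 60177365. The bases after the start were found in a GENCODE transcript for *Hhip* and not for *Gas1*, so the *Gas1* start is uncertain. Capitals mark CCACCC, the 6-letter core of the GLI consensus GACCACCCA.
Hhip: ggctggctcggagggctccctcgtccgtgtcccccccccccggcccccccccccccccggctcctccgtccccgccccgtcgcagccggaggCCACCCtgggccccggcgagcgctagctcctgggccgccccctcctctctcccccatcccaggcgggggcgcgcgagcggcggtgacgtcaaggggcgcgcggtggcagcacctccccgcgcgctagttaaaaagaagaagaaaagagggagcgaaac
Gas1: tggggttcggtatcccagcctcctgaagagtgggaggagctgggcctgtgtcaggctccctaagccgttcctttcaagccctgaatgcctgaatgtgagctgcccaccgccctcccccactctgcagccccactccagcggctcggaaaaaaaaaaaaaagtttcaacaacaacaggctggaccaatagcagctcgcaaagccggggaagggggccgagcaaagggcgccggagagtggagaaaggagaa
The *Hhip* run held 1 match to the core, which starts 158 bases before the RefSeq start, and the *Gas1* run held none. RefSeq promoters were found for 8 of the 9 genes, all except *Boc*. That of *Cdon* (chr9:35451826-35452075) lies inside the GENCODE gene, downstream of its first base. Searched on both strands, the core occurred in 4 of these 8 (*Hhip*, *Smo*, *Gli2*, *Gli3*) and in 28.1% of all 32851 promoters of that length. These 4 had 67.2% to 76.0% G and C, the rest of the 8 had 42.8% to 74.4%, and the median over all promoters was 52.4%. The 9-letter consensus, which contains the core, occurred in 0 of the 8 and in 0.225% of all promoters, and with at most 1 mismatch in 0 of the 8 and in 5.79% of all. Such a match describes letters only.

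To learn where in the tissue the pathway components were transcribed, the UMIs of each gene were summed by cluster and library. The 9 genes were found mainly in stromal cells. In both libraries 8 of the 9 had more than 50% of their UMIs in clusters 5 to 8, the exception being *Sufu*. Over all genes with at least 30 UMIs, 19.6% passed 50% in the B6129PF1/J library and 16.6% in the C57BL/6J library. The median stromal share over the 9 genes was 70.6% and 68.3%, compared with 39.7% and 37.9% over all those genes. A share above 80% was reached by *Hhip* and *Cdon* in the B6129PF1/J library (background 3.82%) and by *Hhip* alone in the C57BL/6J library (3.26%). Stromal cells supplied 39.0% and 37.7% of all UMIs in the B6129PF1/J and C57BL/6J libraries. The level in stromal cells, in UMIs per 10,000, was 1.16 to 18.1 times that in all other cells in the B6129PF1/J library and 1.33 to 29.8 times in the C57BL/6J library. The intervals of these levels overlapped for *Sufu* and *Kif7* in both libraries and not for the other genes. Such separation depends on the number of UMIs of a gene, and its share over all genes was not computed.

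**Figure D1:**
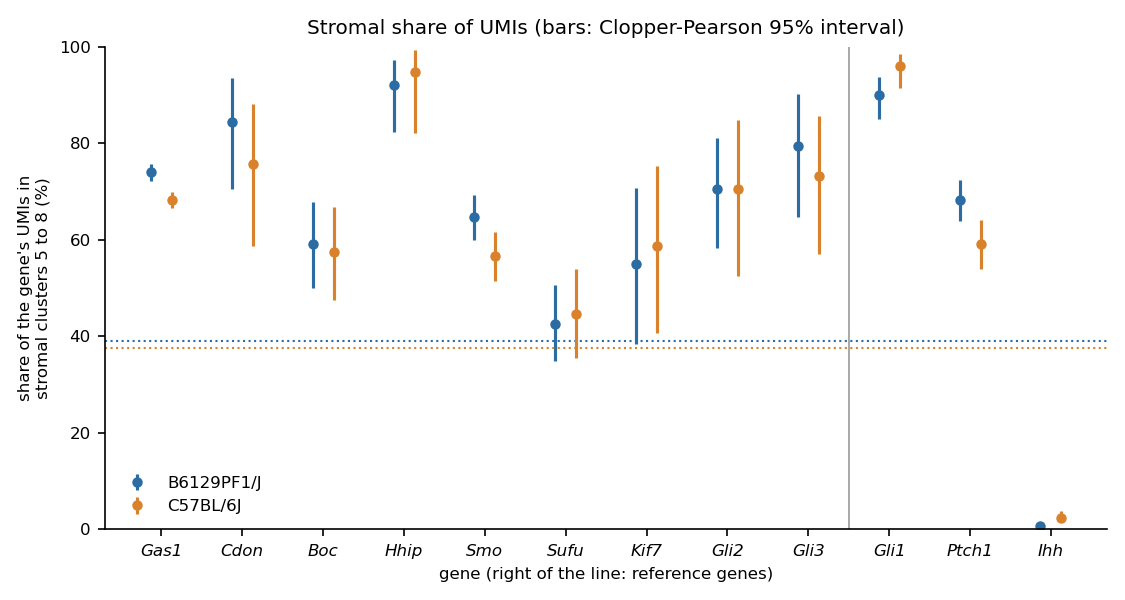
Share of each gene's UMIs (%, y axis) that lay in stromal clusters 5 to 8, for the 9 genes and, right of the line, the reference genes, in the B6129PF1/J (blue) and C57BL/6J (orange) libraries. Points are shares, bars are Clopper-Pearson 95% intervals, and dotted lines give the stromal share of all UMIs (39.0% and 37.7%). *Hhip* is highest among the 9 at 92.1% and 94.7%, *Sufu* sits near the dotted lines at 42.6% and 44.5%, and *Ihh* is near 0.

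Counts were low for most of these genes. *Gas1* alone supplied 73.3% of the 3609 UMIs of the 9 genes in the B6129PF1/J library and 78.6% of the 3665 in the C57BL/6J library. *Kif7* had 40 and 34 UMIs, the fewest in each library together with *Gli2* in the C57BL/6J library, and *Gli2*, *Gli3*, *Cdon* and *Hhip* each had between 34 and 68 per library. *Smo* (417 and 373), *Sufu* (162 and 119) and *Boc* (125 and 108) lay between. UMI totals compare a gene between cells and not with another gene, since transcripts are captured with unequal efficiency.

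**Figure D2:**
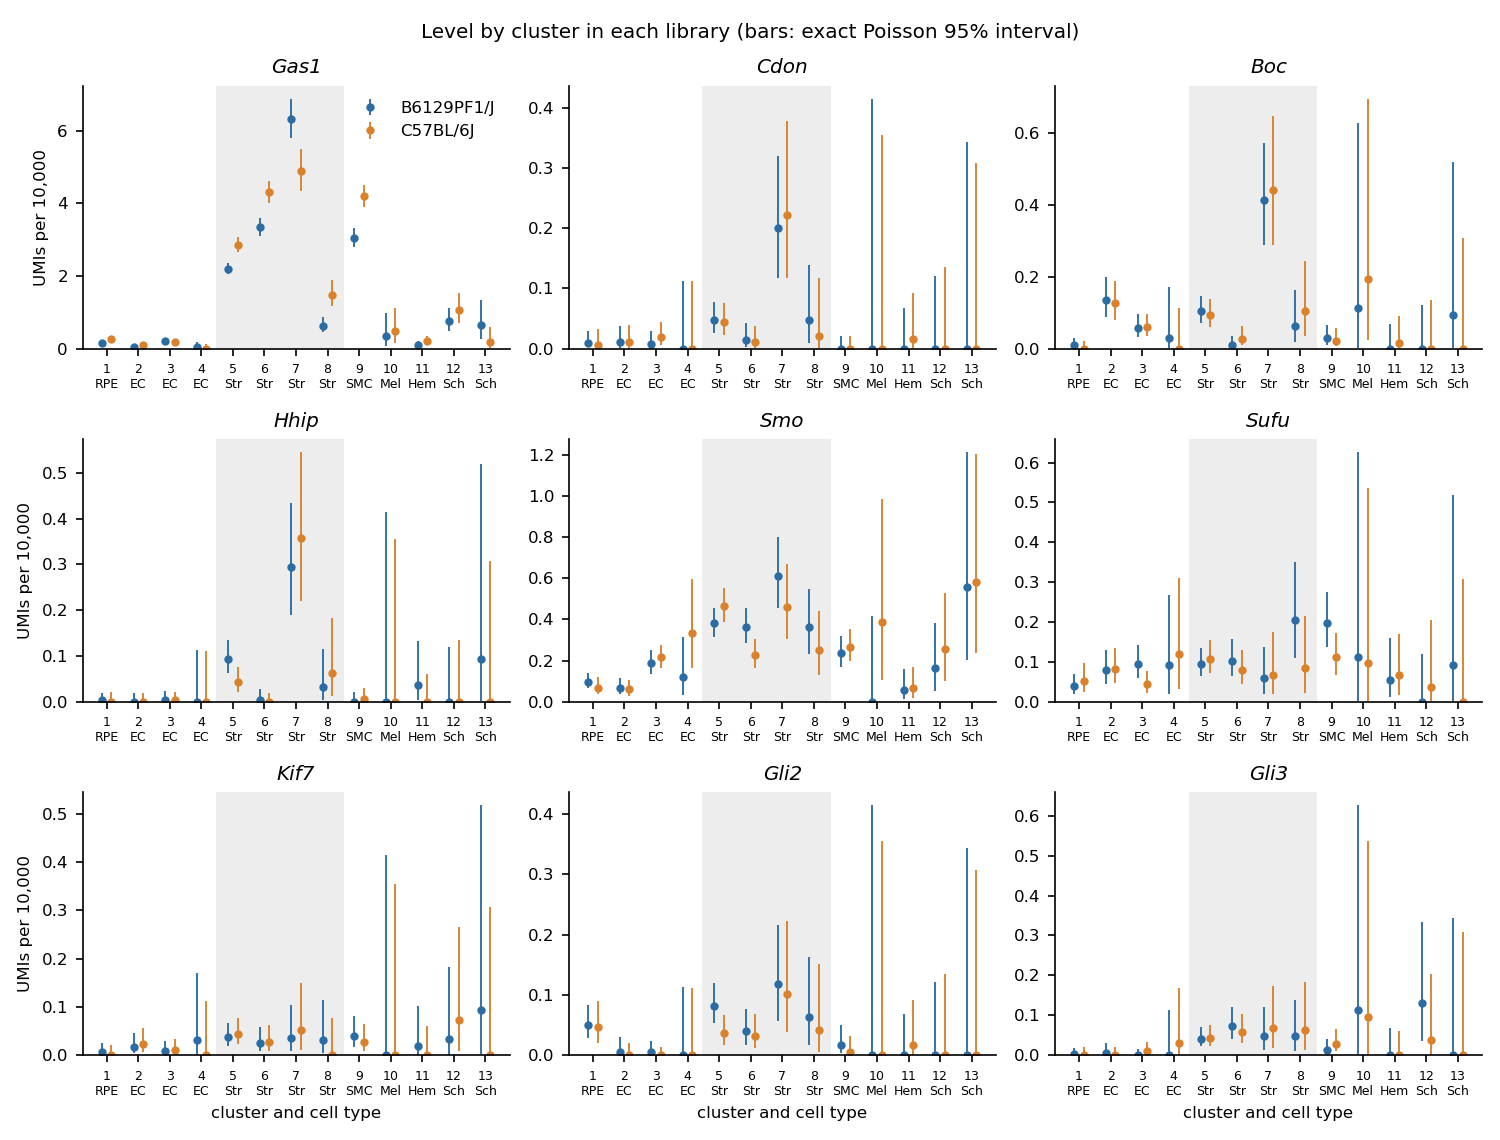
Level of each of the 9 genes (UMIs per 10,000, y axis, 1 scale per gene) in the 13 clusters (x axis: RPE, ECs, stromal cells [Str, shaded], smooth muscle [SMC], melanocytes [Mel], hematopoietic [Hem] and Schwann cells [Sch]) of the B6129PF1/J (blue) and C57BL/6J (orange) libraries, with exact Poisson 95% intervals. *Cdon*, *Boc* and *Hhip* peak in cluster 7 in both libraries, while *Gas1* is also high in clusters 5, 6 and 9 and the wide bars mark clusters 10 and 13, which hold few cells.

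*Gas1*, a GPI-anchored coreceptor that presents ligand to PTCH1, was highest in stromal clusters 5 to 7 and in smooth muscle and lower in stromal cluster 8. In the B6129PF1/J library its level was 6.32 UMIs per 10,000 in cluster 7 (5.80–6.88), 3.34 in cluster 6 (3.09–3.60), 3.04 in smooth muscle cluster 9 (2.79–3.31), 2.20 in cluster 5 (2.04–2.37) and 0.633 in cluster 8 (0.452–0.862). In the C57BL/6J library the order was the same, with 4.88 (4.34–5.48), 4.31 (4.02–4.61), 4.20 (3.91–4.51), 2.86 (2.66–3.06) and 1.49 (1.16–1.88). Clusters 7, 6 and 9 had overlapping intervals in the C57BL/6J library, and the mean over cells and the thinned counts placed cluster 9 first there. Smooth muscle held 20.4% and 26.1% of the *Gas1* UMIs and supplied 10.3% and 11.8% of all UMIs. Schwann cluster 12 held 0.752 (0.476–1.13) and 1.06 (0.712–1.53) UMIs per 10,000.

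ECs carried little *Gas1*. Its level in *Kdr*-high EC cluster 2 was 0.042 (0.0181–0.0827) and 0.110 (0.0669–0.169) UMIs per 10,000, from 8 and 20 UMIs, and ECs held 2.34% and 2.29% of the *Gas1* UMIs. When every cell was thinned to 1700 UMIs, 46.5% and 39.9% of the cells of cluster 7 had a *Gas1* UMI (61.1% and 52.5% before thinning). The same share was 0.943% and 1.57% in hematopoietic cells and 0.541% and 0.993% in EC cluster 2, whose median depths before thinning were 4232.5 and 3460 UMIs compared with 4318 and 3380.5 in cluster 7. *Gas1*, the member with the most UMIs, was also the 1 member whose intervals separated the 2 libraries in any cluster. They did so in clusters 5, 6, 8 and 9, where the C57BL/6J library was higher, and in cluster 7, where the B6129PF1/J library was higher. The lower counts of the other members give intervals that are wider for their level. How often such intervals separate over all genes was not computed. With 1 library per strain, strain and library cannot be told apart.

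*Cdon* and *Boc*, related transmembrane coreceptors of the immunoglobulin superfamily, were both highest in stromal cluster 7. The level of *Cdon* there was 0.200 (0.117–0.321) and 0.221 (0.118–0.378) UMIs per 10,000 from 17 and 13 UMIs. By number of UMIs cluster 5 followed with 15 and 12, and cluster 6 held 3 and 2. By level the next was cluster 8 in the B6129PF1/J library (0.04745), with an interval that overlapped that of cluster 7. In the C57BL/6J library it was cluster 5 (0.0433). No *Cdon* UMI was seen in smooth muscle cluster 9 of either library, where a count of 0 allows up to 0.0169 and 0.0167 UMIs per 10,000. The level of *Boc* in cluster 7 was 0.412 (0.287–0.573) and 0.443 (0.289–0.648).

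*Boc* differed from the other coreceptors in its endothelial part. ECs held 41 of 125 *Boc* UMIs (32.8%) in the B6129PF1/J library and 39 of 108 (36.1%) in the C57BL/6J library, the largest endothelial share among the 9 genes in both. ECs supplied 27.1% and 31.9% of all UMIs, so this share is close to that of the average transcript. Within the ECs, the UMIs lay in the *Kdr*-high and *Kdr*-medium clusters. Cluster 2 held 0.136 (0.0891–0.200) and 0.126 (0.0798–0.189) UMIs per 10,000, cluster 3 held 0.058 (0.0317–0.0974) and 0.0594 (0.0339–0.0964), and *Kdr*-low cluster 4 had 1 and 0 *Boc* UMIs, too few to place it below cluster 3. Cluster 2 was also where *Ihh* was highest, with 3.20 and 3.36 UMIs per 10,000. Stromal cluster 6 held only 2 and 5 *Boc* UMIs, and the RPE 3 and 0.

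*Hhip* had the highest stromal share of the 9 genes in both libraries, although its interval overlapped those of *Cdon* and *Gli3* in both and that of *Gli2* in the C57BL/6J library. The stromal clusters held 58 of 63 *Hhip* UMIs in the B6129PF1/J library (92.1%, 82.4–97.4%) and 36 of 38 in the C57BL/6J library (94.7%, 82.3–99.4%). The share of *Gli1* UMIs there was 90.1% and 96.0%. Most *Hhip* UMIs came from 2 of the 4 stromal clusters. Cluster 7 held 25 and 21 UMIs, or 0.294 (0.191–0.435) and 0.357 (0.221–0.546) UMIs per 10,000, and cluster 5 held 30 and 12, or 0.0945 (0.0637–0.135) and 0.0433 (0.0224–0.0757). Cluster 6, with 541 and 603 cells, held 1 and 0. *Gli1*, by comparison, was present in cluster 6 at 0.206 and 0.174 UMIs per 10,000, from 42 and 33 UMIs, and in cluster 5 at 0.277 and 0.292. *Hhip* was at 0 in EC clusters 2 and 4 of both libraries.

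*Smo*, the membrane protein that PTCH1 restrains and that SAG binds, was broadly distributed. Stromal cells held 64.7% (59.9–69.3%) and 56.6% (51.4–61.7%) of its UMIs, ECs 14.9% and 21.4%, and smooth muscle 10.1% and 12.9%. Its level was 0.612 (0.457–0.803) and 0.460 (0.303–0.669) UMIs per 10,000 in cluster 7, 0.381 (0.316–0.455) and 0.466 (0.389–0.553) in cluster 5, and 0.237 (0.171–0.320) and 0.268 (0.198–0.355) in smooth muscle. Schwann cluster 13 reached 0.558 (0.205–1.22) and 0.584 (0.235–1.204) from 6 and 7 UMIs, an interval that overlaps those of clusters 5 to 8. The lowest levels with 10 or more UMIs were those of *Kdr*-high EC cluster 2, 0.0682 (0.0363–0.117) and 0.0602 (0.0301–0.108), and of the RPE, 0.0967 (0.0648–0.139) and 0.0687 (0.0355–0.120). Among ECs, *Kdr*-medium cluster 3 was above cluster 2 in both libraries, with 0.187 (0.136–0.250) and 0.215 (0.163–0.278) and intervals that did not overlap.

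*Sufu*, which binds and restrains GLI proteins, and *Kif7*, the kinesin that organizes the pathway at the tip of the cilium, were the genes whose stromal and other levels had overlapping intervals. *Sufu* had 42.6% (34.9–50.6%) and 44.5% (35.4–53.9%) of its UMIs in stromal cells, and ECs held 25.3% and 26.1%. Its highest level was in stromal cluster 8 in the B6129PF1/J library, 0.206 (0.110–0.352), and in EC cluster 4 in the C57BL/6J library, 0.121 (0.0329–0.309), and the intervals of 11 and 12 other clusters overlapped the highest. Smooth muscle held 0.197 (0.137–0.274) and 0.112 (0.0682–0.172). *Kif7* was found at 0.0378 (0.0195–0.066) and 0.0433 (0.0224–0.0757) UMIs per 10,000 in cluster 5, where it had 12 UMIs in each library. Its stromal level was 1.91 and 2.37 times that in other cells, and in the C57BL/6J library the same ratio was 2.16 for *Smo* and 2.23 for *Boc*, which had more UMIs and narrower intervals. No cluster stood apart from the rest for *Kif7* at this depth, since the interval of its highest cluster overlapped that of each other cluster.

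*Gli2* and *Gli3*, the transcription factors that act as the main activator and the main repressor of the pathway, shared the stroma and differed in the RPE. *Gli2* had 70.6% of its UMIs in stromal cells in both libraries, with the highest level in cluster 7, 0.118 (0.0565–0.217) and 0.102 (0.0375–0.222) UMIs per 10,000. The RPE held 15 of 68 *Gli2* UMIs (22.1%) in the B6129PF1/J library and 8 of 34 (23.5%) in the C57BL/6J library, where the RPE supplied 17.5% and 11.5% of all UMIs, so that the share in the former was near that of all transcripts. *Gli3* had 1 of 44 and 0 of 41 UMIs there. In the RPE the level of *Gli2* was 0.050 (0.028–0.0825) and 0.0458 (0.0198–0.0902) UMIs per 10,000, while *Gli1* had 2 and 0 UMIs and *Ptch1* 58 and 41. The hematopoietic cells held 0 and 1 *Gli2* UMIs, and the ECs 2 and 0.

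*Gli3* had 79.5% (64.7–90.2%) and 73.2% (57.1–85.8%) of its UMIs in stromal cells. Cluster 6, which held at most 5 UMIs each of *Hhip*, *Cdon* and *Boc* per library, supplied 15 and 11 of them, and cluster 5 supplied 13 and 12. The highest *Gli3* level fell in Schwann cluster 12 (4 UMIs) in one library and in the melanocytes (1 UMI) in the other, and neither is separated from the stromal clusters by its interval.

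**Figure D3:**
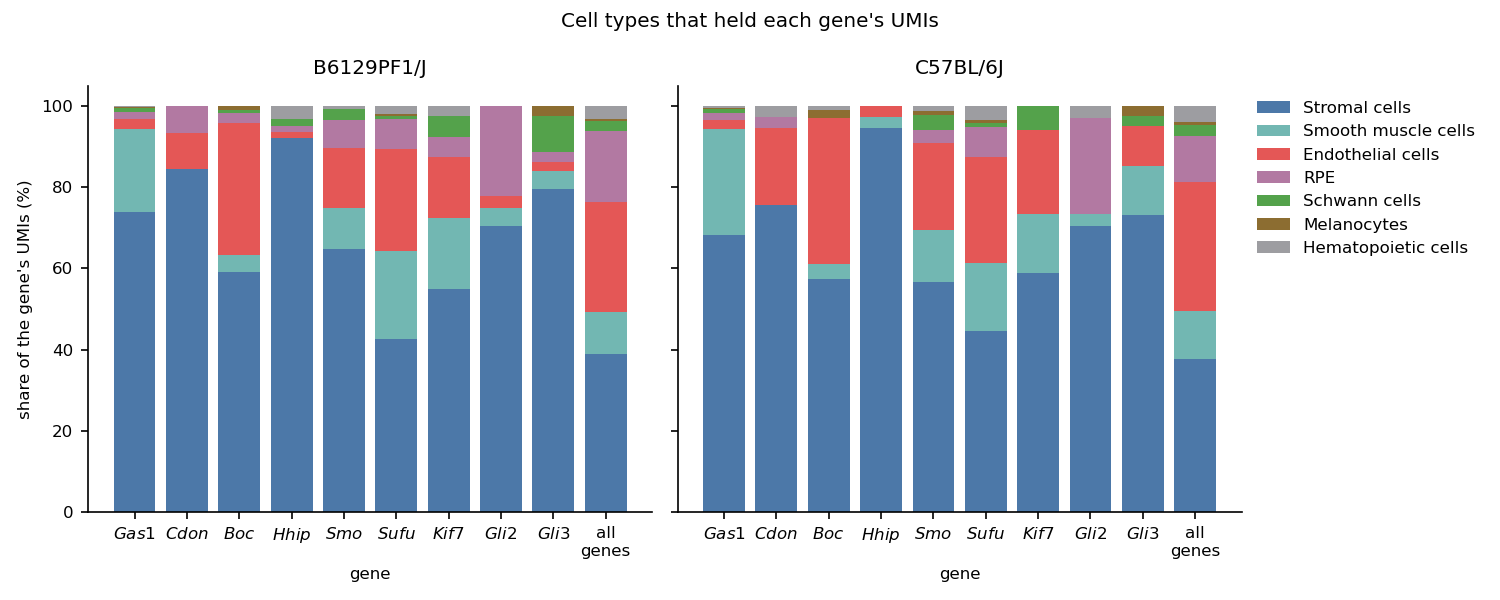
Share of each gene's UMIs (%, y axis) held by each of the 7 cell types, stacked to 100%, in the B6129PF1/J and C57BL/6J libraries, with the share of all UMIs in the last bar. *Boc* has the largest endothelial part (32.8% and 36.1%), *Gli2* has an RPE part (22.1% and 23.5%) that *Gli3* lacks (2.27% and 0%), and *Gas1* has a smooth muscle part (20.4% and 26.1%).

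Considered together, cluster 7 was the stromal cluster richest in these transcripts. It gave the highest level for 6 of the 9 genes in the B6129PF1/J library (*Gas1*, *Cdon*, *Boc*, *Hhip*, *Smo*, *Gli2*) and for 5 in the C57BL/6J library (the same without *Smo*). The share of all genes highest in cluster 7 was not computed. The authors' averages placed *Smo* of the B6129PF1/J library in cluster 13 and *Gas1* of the C57BL/6J library in cluster 9. They placed *Smo* and *Kif7* of the C57BL/6J library in cluster 7. Thinning placed *Gli2* of that library in cluster 11 and *Smo* in cluster 7. The interval of cluster 7 was clear of that of the next cluster for *Gas1*, *Boc* and *Hhip* in the B6129PF1/J library and for *Cdon* and *Hhip* in the C57BL/6J library, apart from small clusters (10, 12 or 13) whose wide intervals still overlapped some of them. At 1700 UMIs per cell, 59.5% and 55.7% of the cells of cluster 7 had a UMI of at least 1 of the 9 genes, compared with 34.4% and 39.2% in cluster 5, 42.0% and 45.4% in cluster 6, 23.1% and 23.8% in cluster 8, 34.3% and 43.6% in smooth muscle and 3.77% and 3.94% in hematopoietic cells. The *Kdr*-high ECs that express *Ihh* had such a UMI in 5.41% and 6.20% of cells. These shares of cells rest largely on *Gas1*, which supplied 73.3% and 78.6% of the UMIs of the 9 genes.

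Stromal cells were also compared by the presence of *Gli1*, the classical readout of a responding cell. At 1700 UMIs, 72 and 71 stromal cells had a *Gli1* UMI and 1662 and 1689 had none. *Hhip* was found in 4.17% (0.868–11.7%) and 1.41% (0.0356–7.599%) of the cells with *Gli1* and in 1.203% (0.737–1.85%) and 1.12% (0.679–1.75%) of those without. *Gas1* was found in 18.1% (9.98–28.9%) and 30.99% (20.5–43.1%) of the cells with *Gli1* and in 28.4% (26.2–30.6%) and 33.1% (30.9–35.4%) of those without. The intervals overlapped for each of the 9 genes in both libraries. A count of 0 in the cells with *Gli1* allows up to 4.99% and 5.06%. This is above the shares of *Sufu*, *Kif7*, *Gli2*, *Gli3*, *Cdon*, *Boc* and *Hhip* in cells without *Gli1*, so a lower share could not have been seen for these genes. Cells without a *Gli1* UMI may also express it. Whether *Gli1* separates stromal cells by these genes thus cannot be decided at this depth.

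For the 4 genes with at least 100 UMIs in each library, the genes with the most similar profile were sought among 9664 genes with the same minimum, by Pearson's r of log2(UMIs per 10,000 + 0.05) over 26 values (13 clusters in 2 libraries, in which each library has its own depth). *Gas1* was most like *Trabd2b* (r = 0.91), *Tgfb3* (0.91) and *Sod3* (0.90), the last encoding extracellular superoxide dismutase. *Smo* was most like *P3h1*, a collagen prolyl hydroxylase (0.88), *Mypop* (0.87) and *Prrc1* (0.87). *Boc* was most like *Mdfi* (0.86), *Lbp*, which encodes the lipopolysaccharide-binding protein (0.81), and *Cul7* (0.80). *Sufu* was most like *Agtpbp1* (0.76), *4930523C07Rik* (0.72) and *Mylk*, the myosin light chain kinase (0.72). Between these 4 members, r was highest for *Gas1* and *Smo* (0.52) and lowest for *Smo* and *Sufu* (0.04). With *Gli1*, r was 0.68 for *Gas1*, 0.55 for *Smo*, 0.47 for *Boc* and 0.36 for *Sufu*. With *Ptch1* it was 0.55, 0.33, 0.20 and −0.05, and with *Ihh* −0.38, −0.21, 0.16 and −0.18, in the same order of genes. These values describe clusters and are not tests.

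The next comparison asked how the tissue levels of these genes stood after *Ihh* had been deleted from ECs. The tables give the authors' average FPKM over the 3 samples of a group and no value of a single sample, so no error or overlap between groups could be computed from them, and no test was run here. In *Ihh*+/+ RPE/choroid the order of the average FPKM was *Gas1* (17.8), *Smo* (13.02), *Boc* (7.58), *Sufu* (3.63), *Gli2* (2.06), *Cdon* (1.94), *Kif7* (1.59), *Hhip* (1.05) and *Gli3* (0.336). The deletion itself was seen in *Ihh*, which had 1.53 FPKM in *Ihh*+/+ and 0.454 in *Ihh* iΔEC/iΔEC tissue, a ratio of 0.297. *Gli1* had 9.40 and 3.15 FPKM, and *Ptch1* 7.69 and 4.98.

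*Hhip* was the 1 member that differed at least 2-fold. Its average was 1.05 FPKM in *Ihh*+/+ and 0.346 FPKM in *Ihh* iΔEC/iΔEC tissue, 3.04 times lower, which is near the 2.99 of *Gli1*. With a pseudocount of 1 FPKM its log2 ratio was −0.61 and 0 members passed 2-fold. Of 11411 genes whose higher average was 1 FPKM or more, 85 or 0.745% were at least 2-fold lower and 126 or 1.1% at least 2-fold higher after deletion. Of the 9 genes 8 had such a level (*Gli3* did not), and 1 of them was 2-fold lower and 0 were 2-fold higher. A share of 0.254% of the tested genes had a lower ratio than *Hhip*. In bulk tissue, fewer cells of a type and less RNA per cell cannot be told apart.

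*Gas1* stood on the other side, with 17.8 FPKM in *Ihh*+/+ and 28.1 FPKM in *Ihh* iΔEC/iΔEC tissue, a ratio of 1.58. It was the 1 member past 1.5-fold upward, a limit that 2.17% of genes passed upward and 2.53% downward, and 1.76% of genes had a higher ratio. The log2 ratios of the other 7 genes lay between −0.26 and 0.10. *Smo* was 13.02 and 10.9 FPKM, *Sufu* 3.63 and 3.31, *Gli2* 2.06 and 1.92, *Gli3* 0.336 and 0.303, *Cdon* 1.94 and 2.01, *Boc* 7.58 and 7.65, and *Kif7* 1.59 and 1.70, each in *Ihh*+/+ and then in *Ihh* iΔEC/iΔEC tissue. The median log2 ratio of the 8 genes was −0.04, beside −0.04 over all tested genes.

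Marker lists of several cell types also differed between the averages of the genotypes. The 6 stromal markers were all lower in the *Ihh* iΔEC/iΔEC average and summed to 469 FPKM compared with 732 FPKM, and the 4 melanocyte markers summed to 1276 compared with 2074 FPKM. The 5 rod photoreceptor markers, which belong to the neural retina, summed to 28.2 compared with 80.8 FPKM, and the 4 skeletal muscle markers to 308 compared with 225 FPKM. The 5 EC markers summed to 72.7 compared with 85.0 FPKM, and the 5 RPE markers to 7247 compared with 6066 FPKM. The 4 hematopoietic markers summed to 924 compared with 728 FPKM, although only 1 of them was higher and their median log2 ratio was −0.07. The 4 smooth muscle markers summed to 51.3 compared with 57.3 FPKM and the 4 pericyte markers to 71.2 compared with 84.3 FPKM. Of these, 1 smooth muscle and 0 pericyte markers were higher in the *Ihh* iΔEC/iΔEC average. Most UMIs of *Gas1* and *Hhip* were stromal in the scRNAseq data, and smooth muscle held 20.4% and 26.1% of those of *Gas1*. *Hhip* was lower by a ratio of 0.329 beside 0.641 for the stromal list, and *Gas1* was higher. The part of these cell types in the ratios of *Hhip* and *Gas1* was not tested.

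Other HH pathway genes, taken from a list of 40 by role that includes the 3 reference genes, were measured in 35 cases, 27 of them with at least 1 FPKM. Of these 27, 2 were at least 2-fold lower (*Ihh* and *Gli1*) and 1 was at least 2-fold higher, *Foxf1*, a forkhead transcription factor (0.707 FPKM in *Ihh*+/+ and 1.72 FPKM in *Ihh* iΔEC/iΔEC tissue). In the scRNAseq data ECs held 82.1% and 90.6% of the *Foxf1* UMIs and stromal cells 7.32% and 6.13%. At 1.5-fold, which 2.17% of all genes passed upward and 2.53% downward, 1 of the 27 was higher and 6 were lower. By role, 2 of 3 receptor genes, 3 of 6 target genes and 1 of 3 ligand and release genes were lower by that limit, and 0 of 10 transducer and 0 of 5 cilium genes passed it in either direction. Besides *Ihh*, *Gli1* and *Ptch1*, the lower genes, named here after their values were seen, were *Gpc3* (ratio 0.613), *Ccnd2* (0.643) and *Foxf2* (0.658). The median log2 ratio of the 27 genes was −0.09.

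**Figure D4:**
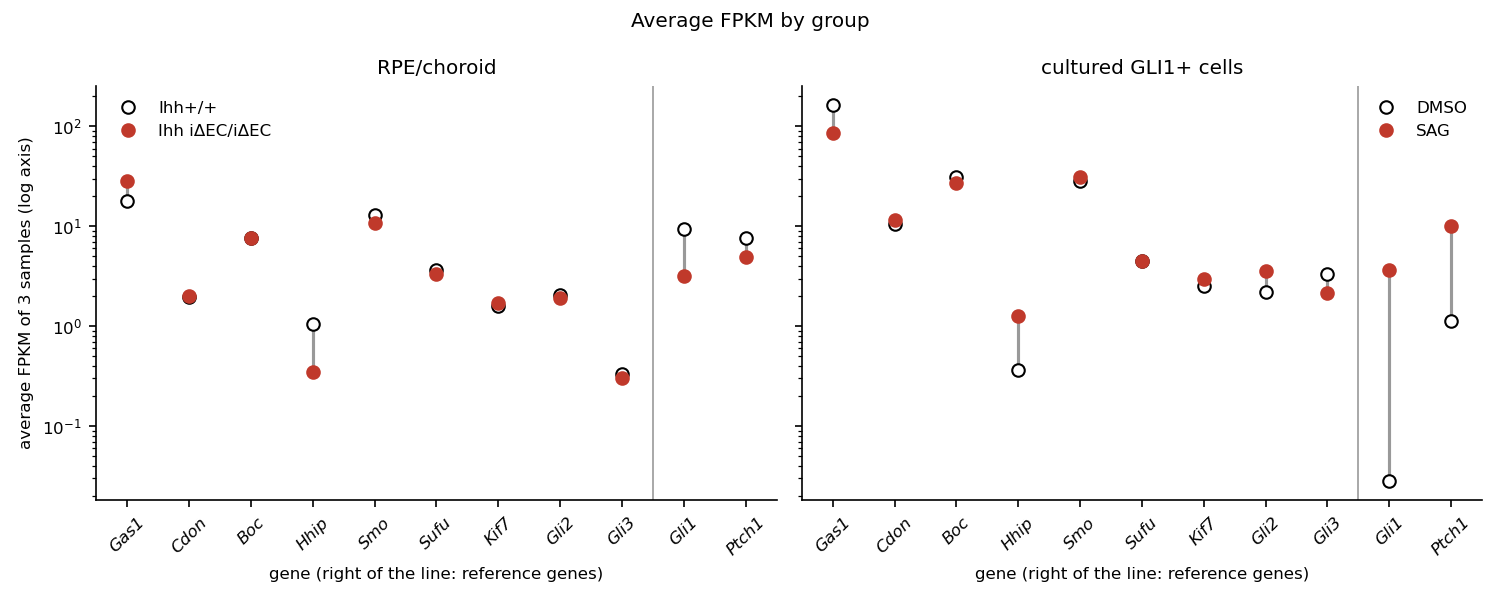
Average FPKM of 3 samples (log axis) for the 9 genes and, right of the line, *Gli1* and *Ptch1*, in RPE/choroid of *Ihh*+/+ (open) and *Ihh* iΔEC/iΔEC (red) mice and in cultured GLI1+ cells with DMSO (open) or SAG (red). Gray lines join the 2 averages of a gene and are no error bars. *Hhip*, *Gli1* and *Ptch1* are lower after *Ihh* deletion and higher with SAG, and *Gas1* shows the opposite order.

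The last comparison asked how these genes stood in isolated GLI1+ cells after SMO had been activated. The cultured GLI1+ cells had a stromal profile, with 4184 FPKM summed over the 6 stromal markers in DMSO and under 1 FPKM in each of the 5 EC, 5 rod and 4 melanocyte markers. The 4 smooth muscle markers summed to 619 FPKM. Their *Gli1* level in DMSO was 0.028 FPKM, a low value for cells named for this gene. The order of the 9 genes in DMSO was *Gas1* (164 FPKM), *Boc* (31.1), *Smo* (28.4), *Cdon* (10.5), *Sufu* (4.52), *Gli3* (3.30), *Kif7* (2.55), *Gli2* (2.20) and *Hhip* (0.368). *Gas1* was higher than 99.0% of all 17623 genes. With SAG, *Gli1* was 3.65 FPKM, and *Ptch1* was 10.1 FPKM compared with 1.13 FPKM in DMSO.

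*Hhip* was again the 1 member past 2-fold, with 0.368 FPKM in DMSO and 1.28 FPKM in SAG, a ratio of 3.48. With a pseudocount of 1 FPKM its log2 ratio was 0.74 and 0 members passed 2-fold, and with median-of-ratios scaling *Gas1* also passed 2-fold, lower with SAG (log2 ratio −1.01). Of 10325 genes whose higher average was 1 FPKM or more, 40 or 0.387% were at least 2-fold higher with SAG and 122 or 1.18% at least 2-fold lower. A share of 0.0485% of the tested genes had a higher ratio than *Hhip*. All 9 genes reached 1 FPKM in SAG or DMSO, and 1 was 2-fold higher and 0 were 2-fold lower.

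The averages of 3 further genes lay between 1.5-fold and 2-fold apart. *Gas1* had 164 FPKM in DMSO and 85.3 FPKM in SAG, 1.93 times lower and just inside the 2-fold limit. *Gli3* had 3.30 and 2.13 FPKM, 1.55 times lower, and *Gli2* had 2.20 and 3.55 FPKM, 1.62 times higher. On the FPKM scale, *Gli3* was above *Gli2* in DMSO and below it in SAG. The 1.5-fold limit was passed by 1.38% of genes upward and 2.45% downward, so that 2 of the 9 genes (*Hhip*, *Gli2*) lay past it upward and 2 (*Gas1*, *Gli3*) downward.

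The remaining transducers and coreceptors had similar averages with and without SAG. *Smo*, the target of the agonist, was 28.4 FPKM in DMSO and 31.4 FPKM in SAG, *Sufu* 4.52 and 4.46, *Kif7* 2.55 and 2.94, *Cdon* 10.5 and 11.5, and *Boc* 31.1 and 27.3. The median log2 ratio of the 9 genes was 0.13, beside 0.06 over all tested genes. In the list of other pathway genes 25 had at least 1 FPKM, of which 2 were at least 2-fold higher, the reference genes *Gli1* and *Ptch1*, and 0 were at least 2-fold lower. At 1.5-fold, which 1.38% of all genes passed upward and 2.45% downward, 4 of the 25 were higher and 0 lower. These were 1 of 2 receptor genes and 3 of 5 target genes, among them *Bcl2* (ratio 1.90) and *Foxf2* (1.71), both named after their values were seen, whereas 0 of 11 transducer, 0 of 5 cilium and 0 of 2 ligand and release genes passed it. The stromal list summed to 3763 FPKM in SAG.

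**Figure D5:**
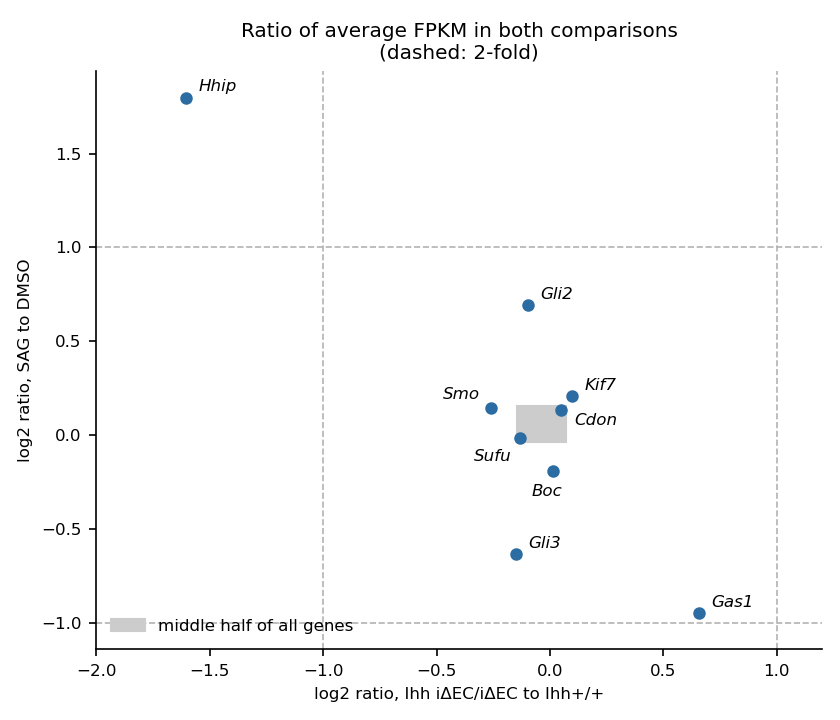
Log2 ratio of average FPKM of the 9 genes after *Ihh* deletion in RPE/choroid (x axis) and after SAG in cultured GLI1+ cells (y axis). Dashed lines mark 2-fold and the gray box spans the quartiles of all tested genes. *Hhip* lies at −1.61 and 1.80, *Gas1* at 0.66 and −0.95, and the other 7 genes lie within 0.27 of 0 on the x axis, with *Gli2* at 0.69 and *Gli3* at −0.63 on the y axis.

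Set side by side, the 2 comparisons, which differ in tissue, strain and duration, had opposite signs for *Hhip* (log2 ratio −1.61 after deletion and 1.80 with SAG) and for *Gas1* (0.66 and −0.95). The signs were also opposite for *Gli2*, *Smo* and *Boc*, whose ratios were smaller in size in both comparisons. The share of all genes with opposite signs was not computed. *Gli2* and *Gli3*, which differed with SAG (0.69 and −0.63), had log2 ratios of −0.10 and −0.15 after *Ihh* deletion. *Sufu* was −0.13 and −0.02, *Cdon* 0.05 and 0.13, *Boc* 0.01 and −0.19, *Kif7* 0.10 and 0.21, and *Smo* −0.26 and 0.15.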

How the data were processed

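RPE/choroid cells were profiled by scRNAseq, and RPE/choroid tissue and cultured GLI1+ cells by bulk RNAseq. The authors made the UMI counts with Cell Ranger (mm10), clustered the cells in Seurat 2.1 and deposited a raw count per gene and cell. The deposited cluster averages are natural log values and served only as an alternative. FPKM came from the authors, who aligned reads with STAR 2.4.0f1 and ran Cufflinks 2.0.2 (mm10), and is deposited as averages over 3 samples, without depth, so the precision of low values is unknown. Fold changes and p-values that the authors placed in these tables were not used. The list of choroid-enriched EC genes, which names none of the 9 members, was not used either, and ECs of other organs were not analysed here.

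All deposited cells, each with at least 1717 UMIs, were kept, doublets included. Their numbers per library and in most clusters differ from those given in the paper. Cluster 7, with 185 and 158 cells here, is smaller than in the paper. Levels are UMIs summed over the cells of a cluster, per 10,000 UMIs of that cluster, and have exact Poisson intervals. Shares carry Clopper-Pearson intervals. Leaving out the 35 and 33 cells with both *Xist* and *Ddx3y* was an alternative. For shares of cells, each cell was thinned to 1700 UMIs without replacement. In bulk, a gene was counted from a ratio of averages of at least 2 where the higher average reached 1 FPKM. The planned limma test needs values of single samples, which these tables do not give, and was not run. Scripts were tested on simulated data.

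Named genes were the 9 members, the 3 references, pathway genes past the 2-fold limit, and the 3 genes most like each member with at least 100 UMIs per library. The tools were Python 3.11.15 with matplotlib 3.10.9, pandas 2.3.3, scipy 1.17.1 and numpy 2.4.6. Coordinates are from GENCODE vM21 (GRCm38, the assembly that mm10 names) and promoters from RefSeq. The members and lists were chosen with earlier results of these data known.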

Additional observations from a re-analysis of the deposited data

How the results depend on the processing

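Thinning every cell to 1700 UMIs moved the stromal share outside its interval for 5 of the 18 gene and library pairs, to 73.2% for *Smo*, 63.0% for *Sufu* and 77.4% for *Gas1* in the B6129PF1/J library and to 64.0% for *Smo* and 100% for *Hhip* in the C57BL/6J library, so that *Sufu* passed 50% in the former. Thinning by its construction also brings the stromal share of all UMIs from 39.0% and 37.7% to the stromal share of cells, 47.7% and 44.8%, so these upward moves are partly fixed. Leaving out the cells with *Xist* and *Ddx3y* moved none outside its interval. The number of genes highest in a stromal cluster, 7 and 5, was 6 and 6 on the authors' averages, 7 and 4 by the mean over cells and 7 and 4 after thinning. With a limit of 1.5-fold in place of 2-fold, 1 gene (*Gas1*) rather than 0 was higher after *Ihh* deletion, 2 genes rather than 1 were higher with SAG and 2 rather than 0 lower. A pseudocount of 1 FPKM left 0 genes past 2-fold in either comparison, with log2 ratios for *Hhip* of −0.61 and 0.74. Scaling the averages by the median of ratios put 1 gene, *Gas1*, past 2-fold lower with SAG (log2 ratio −1.01). A minimum of 0.1 FPKM changed none of these counts. None of the 9 log2 ratios changed sign in either comparison with the pseudocount or the scaling. No paired analysis was possible because the bulk tables hold only averages over the samples of a group, and for the same reason leaving out each replicate was not run. The depth limits *Cdon*, *Hhip*, *Kif7*, *Gli2* and *Gli3*, with 34 to 68 UMIs per library, to statements on their main clusters.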
